A study of Mus musculus with 8 samples.

Results

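Mitochondrial ribosomal proteins are nuclear-encoded proteins of the ribosome that translates the genes of mitochondrial DNA. The genes described here were protein-coding genes of the mouse whose symbol begins with Mrpl (large subunit) or Mrps (small subunit) followed by a number. No measured value enters this naming rule, but it was chosen with earlier results of these data known. Usable counts were present for 43 of them, 26 named Mrpl and 17 named Mrps, among 35880 usable genes of the deposited table. A further 35, 23 named Mrpl and 12 named Mrps, stood in lines of the table with 10 values for 8 libraries and were not analysed, so the description covers 43 of 78 genes of this naming. Kidney RNA came from wild-type (WT) C57/BL6J mice, described as male in the study's methods, in 2 groups of 4, a control group given saline and a group given cisplatin, a platinum chemotherapy drug that injures kidney tubules. The study's methods give an intraperitoneal cisplatin dose of 23 mg/kg and collection of the kidneys 72 h after injection, and the age of the mice is not given in the sources used here. Controls carry the replicate numbers 1, 2, 3 and 5 and cisplatin-treated kidneys 1, 3, 4 and 6, the order in which values are listed.

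The mitochondrial ribosome consists of ribosomal RNAs made inside the mitochondrion and of proteins that are made in the cytosol and imported. It translates only core subunits of the respiratory chain and of ATP synthase, so its products must be matched by nuclear-encoded partners. Some of its proteins descend from bacterial ribosomal proteins, and others have no bacterial homologue. The proximal tubule, the main site of cisplatin uptake in the kidney, is rich in mitochondria and depends on oxidative metabolism.

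The total count per library over usable genes ranged from 10953338 to 16701599, of which the 43 genes took 23943 to 41261 counts. Levels are given as CPM, each count divided by its library's size after edgeR's default TMM scaling, which assumes that most genes do not change. In a principal component analysis over all genes tested, the first component (73.6% of the variance) separated the treatments, and the second (16%) separated control 5, cisplatin 4 and cisplatin 6 from the other 5 libraries. These 3 libraries are called the second library set below, and control 1, 2 and 3 with cisplatin 1 and 3 the first. Scores on the second component were -29.3 in control 5 and -34.7 and -33.6 in cisplatin 4 and 6. They were 6.6 to 9.9 in control 1 to 3 and 35.2 and 38.1 in cisplatin 1 and 3. The first set was thus not a single cluster on this component. The labels name no batch, and the sets were read from a component to which the ribosomal protein genes themselves contributed. Counts of the Y-linked genes Eif2s3y and Kdm5d were at most 3 in cisplatin 1 and 3 and 274 to 1333 in the other 6 libraries, so that 2 of the 4 cisplatin libraries go against the description of the mice as male. Kidney identity was clear, with the summed level of 10 proximal tubule markers at 27660 to 36885 CPM in the controls and 1160 to 2693 CPM after cisplatin. Of these markers 10 of 10 were lower after cisplatin, whereas 5 of 6 markers of injured tubule were higher (summed level 924 to 1072 CPM in the controls, 12339 to 28577 CPM after cisplatin). Leukocyte markers with usable counts numbered 6 of 10 (4 higher, 1 lower), with a summed level of 55.6 to 101 CPM in the controls and 39.3 to 102 CPM after cisplatin. Of 5 genes listed as markers of the thick limb, distal tubule and collecting duct, 3 were lower (Umod, Slc12a3 and Calb1). The collecting duct gene Aqp2 was higher. Slc12a1 was not called. For each of these genes except Aqp2, every cisplatin library was below every control. Of 2 erythroid markers 1 was lower. In whole tissue, fewer cells of a type and less RNA per cell cannot be told apart, and the part of these shifts in the results below was not tested.

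Windows from the RefSeq promoter table (build GRCm38.p6, 250 bases before to 50 bases after the start of each gene) were found for 39 of the 43 genes. They were searched on both strands for 3 motifs of factors known to act on nuclear genes of mitochondrial proteins. The NRF1 core GCATGCG was present in 4 of the 39 (10.3%), against 6.5% of 5809 tested protein-coding genes and 4.0% of 27025 genes in the table. The ETS motif CCGGAAG, bound by GABP, was present in 15 (38.5%, against 17.3% and 9.9%), and the YY1 motif AAGATGG in 7 (17.9%, against 7.7% and 7.3%). At least 1 of the 3 was present in 22 of the 39 windows (56.4%, against 28.1% and 19.3%). The NRF1 core matches on both strands at positions shifted by 1 base, and each gene was counted once. The 150 bases before the start, written 5′ to 3′ on the strand of the gene, are given for Mrpl22, Mrpl9 and Mrpl10, which hold the NRF1 core in this stretch, for Mrpl52, the gene with the highest log2 fold change, and for Mrps36 and Mrps2, the genes with the lowest. Capitals mark matches to any of the 3 motifs on either strand, and the Mrps36 and Mrps2 windows hold none.
Mrpl22 (chr11:58171514-58171663, plus strand): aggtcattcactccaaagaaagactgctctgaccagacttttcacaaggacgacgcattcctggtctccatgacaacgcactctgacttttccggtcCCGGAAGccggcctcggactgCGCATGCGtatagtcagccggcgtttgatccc
Mrpl9 (chr3:94443186-94443335, plus strand): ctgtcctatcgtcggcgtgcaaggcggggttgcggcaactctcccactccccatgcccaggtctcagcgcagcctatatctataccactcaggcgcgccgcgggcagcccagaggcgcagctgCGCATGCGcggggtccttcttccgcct
Mrpl10 (chr11:97041432-97041581, plus strand): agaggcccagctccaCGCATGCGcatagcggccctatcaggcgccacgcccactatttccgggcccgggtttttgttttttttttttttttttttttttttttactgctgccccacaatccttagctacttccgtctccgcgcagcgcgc
Mrpl52 (chr14:54426759-54426908, plus strand): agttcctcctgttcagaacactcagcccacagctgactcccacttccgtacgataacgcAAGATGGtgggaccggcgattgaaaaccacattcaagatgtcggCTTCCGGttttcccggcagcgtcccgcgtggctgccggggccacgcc
Mrps36 (chr13:100744660-100744809, minus strand): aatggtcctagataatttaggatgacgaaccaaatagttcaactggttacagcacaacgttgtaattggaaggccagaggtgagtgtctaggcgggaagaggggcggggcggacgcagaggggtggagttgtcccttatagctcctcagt
Mrps2 (chr2:28467916-28468065, plus strand): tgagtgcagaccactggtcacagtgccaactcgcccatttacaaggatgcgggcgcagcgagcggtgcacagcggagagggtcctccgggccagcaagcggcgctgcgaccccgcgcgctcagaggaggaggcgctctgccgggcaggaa

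The first question was whether transcripts of mitochondrial ribosomal proteins differed between cisplatin-treated and control kidneys. Of the 42 genes tested, 3 were higher after cisplatin (Mrpl52, Mrps6 and Mrps18b), 6 were lower (Mrps36, Mrps2, Mrpl1, Mrpl42, Mrps31 and Mrpl3) and 33 did not pass an adjusted p of 0.05 in edgeR. Over all 9141 genes tested, 26.4% were higher and 22.6% lower, 49.1% in either direction, so the share called among the ribosomal protein genes was below the background. With a log2 fold change of at least 1 required in addition, 2 were up-regulated and 3 down-regulated, against 19.2% and 15.7% of all genes. The median log2 fold change was -0.067, beside 0.077 over all genes, and the median absolute value was 0.289, beside 0.734. The cisplatin libraries lay wholly below the controls for 6 genes and wholly above for 2, against 22.5% and 23.7% of all genes. For 19 genes the absolute log2 fold change was under 0.25, with a median SE of 0.253 over the 42. Where libraries were scaled by their total count alone, the median log2 fold change of all genes moved from 0.077 to 0.645, that of the 42 genes moved from -0.067 to 0.497, and 17 were higher and 3 lower (Mrps36, Mrps2 and Mrpl42), against 47.8% and 11.9% of all genes. The 3 genes that were higher with TMM were among the 17, and the share of calls that were higher was 85% in place of 33.3%.

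**Figure D1:**
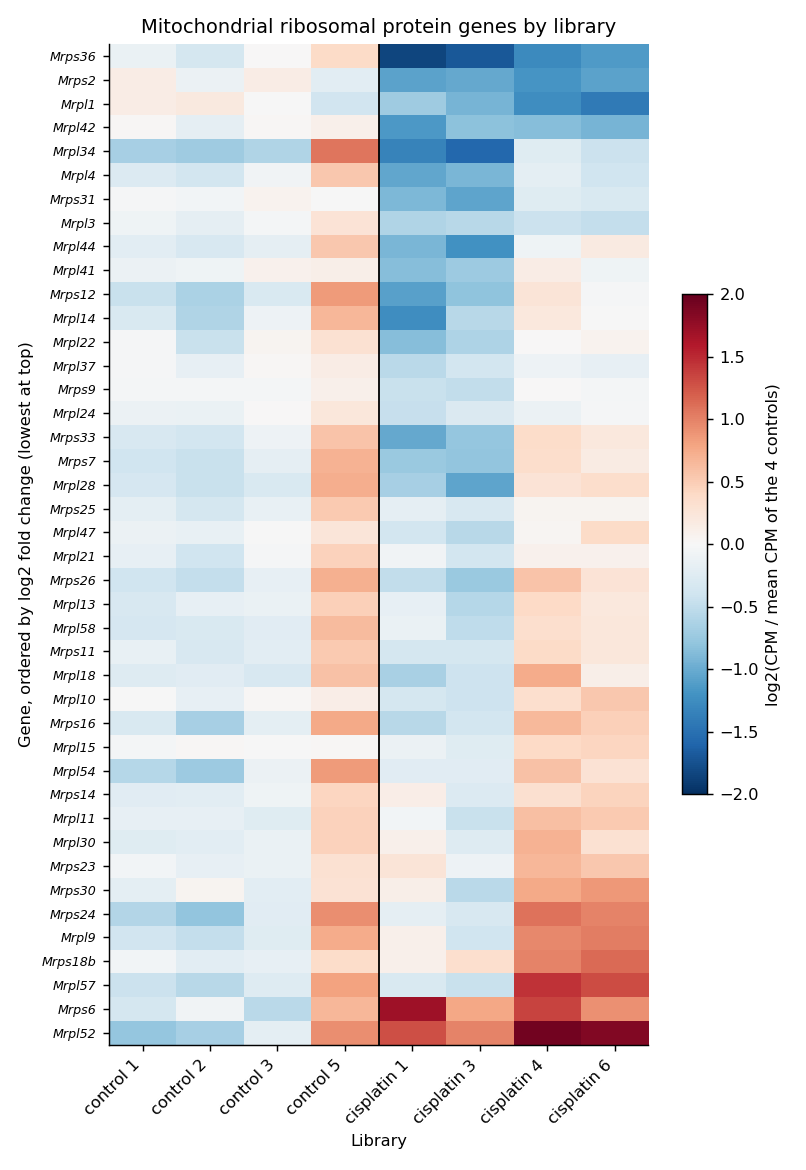
Heat map of the log2 ratio of CPM to the mean of the 4 controls for the 42 genes tested (vertical axis, ordered by log2 fold change) in each of the 8 libraries (horizontal axis, controls left of the line). Control 5 is the highest control in 39 of the 42 lines, and cisplatin 4 and 6 both lie above cisplatin 1 and 3 in 38.

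Among the large subunit proteins, 26 were tested, including Mrps30, which carries an S name but sits in the large subunit. In this subunit 1 gene was higher (Mrpl52) and 3 were lower (Mrpl1, Mrpl42 and Mrpl3), with a median log2 fold change of -0.067 (0.494 by total counts). Mrpl52, a large subunit protein with no bacterial homologue (ENSMUSG00000010406, chr14:54426909-54429756 on GRCm38), was at 11.2, 12.05, 16.7 and 36.6 CPM in the controls and at 46.6, 38.1, 73.2 and 68.9 CPM after cisplatin. Each cisplatin library exceeded each control, control 5 lying closest to them, and the mean rose 2.96-fold (log2 fold change 1.56 ± 0.39 (SE), adjusted p = 0.00869). The rise was present in both library sets, by 1.65 in the first and 0.94 in the second on the log2(CPM + 0.5) scale.

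Mrpl1, the counterpart of the bacterial L1 stalk protein (ENSMUSG00000029486, chr5:96209493-96266727), was at 58.5, 60.5, 52.6 and 40.6 CPM in the controls and 32.3, 27.9, 22.4 and 19.8 CPM after cisplatin. The groups did not overlap (log2 fold change -1.05 ± 0.20 (SE), adjusted p = 0.00216), and unlike most of the genes it was lower, not higher, in the libraries of the second set within each treatment. Mrpl42, which has no bacterial homologue (ENSMUSG00000062981, chr10:95480805-95501940), was at 144, 125, 145 and 153 CPM in the controls, the highest mean CPM of the 42 genes there, and at 63.9, 80.6, 78.2 and 74.4 CPM after cisplatin. Its 4 cisplatin values lay close together and well under the lowest control (log2 fold change -0.93 ± 0.14 (SE), adjusted p = 0.000446). Mrpl3, the counterpart of bacterial L3, which reaches the peptidyl transferase centre, fell less. Its levels were 55.6, 52.2, 57.4 and 71.1 CPM in the controls and 38.98, 40.4, 43.9 and 42.7 CPM after cisplatin (log2 fold change -0.51 ± 0.14 (SE), adjusted p = 0.0151), and the change was 0.057 in the other direction by total counts. Mrpl3 (ENSMUSG00000032563, chr9:105053239-105079888) shares 248 exon bases on the same strand with the gene model Gm38077. Mrpl1 kept its sign by total counts without passing the test (log2 fold change -0.47, adjusted p = 0.109).

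Mrpl34 had the highest mean level per kilobase of exon in the controls, 70.9 CPM per kb, of a range of 4.55 to 70.9 with a median of 21.2. This rank rested on control 5, and Mrpl10 followed at 64.7 CPM per kb. Mrpl34 was at 27.01, 26.2, 28.3 and 90.6 CPM in the controls and 17.1, 14.5, 36.5 and 31.96 CPM after cisplatin. Control 5 thus stood above every other library, and the groups overlapped (log2 fold change -0.79 ± 0.47 (SE), adjusted p = 0.19). Mrpl4, whose bacterial counterpart lines the tunnel through which the new protein leaves, was at 102, 96.3, 118 and 179 CPM in the controls and 60.3, 65.7, 108 and 94.1 CPM after cisplatin (log2 fold change -0.60 ± 0.26 (SE), adjusted p = 0.0793). For both genes every cisplatin library was below the controls of its own library set. Mrpl44, which resembles a ribonuclease III, was at 48.6, 44.99, 49.7 and 82.4 CPM in the controls and 29.97, 24.3, 53.3 and 63.9 CPM after cisplatin (log2 fold change -0.40 ± 0.33 (SE), adjusted p = 0.338). Within each set of libraries it too was lower after cisplatin, while the second set was higher within each treatment.

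Proteins of the stalk base, where translation factors bind, did not pass the test. Mrpl10 was at 109, 98.5, 113 and 121 CPM in the controls and 86.1, 82.8, 140.0 and 161 CPM after cisplatin (log2 fold change 0.09 ± 0.23 (SE), adjusted p = 0.771). It was below the controls in cisplatin 1 and 3 and above them in cisplatin 4 and 6. Mrpl11 was at 41.8, 41.8, 39.7 and 64.6 CPM in the controls and 45.2, 34.4, 71.2 and 67.9 CPM after cisplatin (log2 fold change 0.22 ± 0.26 (SE), adjusted p = 0.52), and Mrpl12, the third stalk protein, was among the genes not analysed. Mrpl58, a peptidyl-tRNA hydrolase that rescues stalled ribosomes and is also built into the large subunit, was at 39.6, 40.2, 42.5 and 77.4 CPM in the controls and 45.3, 34.98, 63.03 and 58.1 CPM after cisplatin (log2 fold change 0.01 ± 0.27 (SE), adjusted p = 0.976). Mrps30 was at 26.5, 31.6, 26.3 and 36.95 CPM in the controls and 33.1, 20.9, 51.2 and 55.4 CPM after cisplatin (log2 fold change 0.40 ± 0.29 (SE), adjusted p = 0.278). None of these 4 genes passed the test, and in each the groups overlapped. Mrpl57 and Mrpl9 had positive log2 fold changes that did not pass it either. Mrpl57 was at 20.01, 18.4, 22.6 and 47.1 CPM in the controls and 21.9, 19.96, 73.6 and 66.9 CPM after cisplatin (log2 fold change 0.75 ± 0.48 (SE), adjusted p = 0.223), with cisplatin 1 and 3 at the level of control 1 to 3. Mrpl9 was at 46.8, 43.5, 51.3 and 102 CPM in the controls and 64.99, 46.03, 118 and 124 CPM after cisplatin (log2 fold change 0.54 ± 0.37 (SE), adjusted p = 0.257). Mrpl53 had no count in any library. Its exons share 695 bases on the same strand with Gm42688, which was at 1.84 CPM in the controls and 2.43 CPM after cisplatin, and the rule by which the authors' counting treated shared bases is not given in the sources used here.

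Among the small subunit proteins, 15 were tested, of which 2 were higher (Mrps6 and Mrps18b) and 2 lower (Mrps2 and Mrps31), with a median log2 fold change of -0.001 (0.553 by total counts). Mrps2, the counterpart of bacterial S2 (ENSMUSG00000035772, chr2:28468066-28471178), was at 109, 90.3, 108 and 84.9 CPM in the controls and 46.8, 48.2, 43.2 and 46.9 CPM after cisplatin. Its 4 cisplatin values lay close together and wholly below the controls, a 2.12-fold lower level (log2 fold change -1.08 ± 0.14 (SE), adjusted p = 0.000192). Mrps31, a small subunit protein with no bacterial homologue (ENSMUSG00000031533, chr8:22411361-22429665), was at 51.4, 50.2, 54.8 and 51.5 CPM in the controls and 28.02, 24.97, 43.9 and 42.3 CPM after cisplatin (log2 fold change -0.58 ± 0.20 (SE), adjusted p = 0.037). It fell further in the first library set (-0.96) than in the second (-0.26), and this call was lost when control 1, 2 or 3 or cisplatin 1 or 3 was left out (adjusted p from 0.0605 to 0.0929). By total counts its log2 fold change was -0.033 (adjusted p = 0.886).

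Mrps6, the counterpart of bacterial S6 (ENSMUSG00000039680, chr16:92058270-92112227), was at 46.7, 56.7, 41.3 and 94.3 CPM in the controls and 194, 102, 153 and 112 CPM after cisplatin. The lowest cisplatin library exceeded the highest control by a small margin, and the mean rose 2.35-fold (log2 fold change 1.23 ± 0.30 (SE), adjusted p = 0.00698). The rise was 1.55 in the first library set and 0.475 in the second on the log2(CPM + 0.5) scale. The gene shares 159 exon bases on the same strand with Slc5a3, the myo-inositol transporter gene that lies inside its locus and had no usable counts, and 305 with Gm49711, of 1053 bases of its own, and how reads in the shared bases were counted is not given in the sources used here. Mrps18b, one of several mitochondrial relatives of bacterial S18 (ENSMUSG00000024436, chr17:35910379-35916389), was at 30.7, 27.6, 28.7 and 41.2 CPM in the controls and 34.3, 40.4, 63.9 and 70.02 CPM after cisplatin (log2 fold change 0.70 ± 0.25 (SE), adjusted p = 0.0429). Cisplatin 1 and 3 lay between control 1 to 3 and control 5, and the call was lost when control 1, 2 or 3 or cisplatin 4 or 6 was left out (adjusted p from 0.0959 to 0.119). An antisense gene, Gm16279, shares 638 of its exon bases on the opposite strand and was at 3.68 CPM in the controls and 5.46 CPM after cisplatin.

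Mrps12, the counterpart of the S12 protein of the decoding centre, was at 24.5, 21.4, 26.8 and 60.3 CPM in the controls and 15.6, 19.1, 39.8 and 32.7 CPM after cisplatin (log2 fold change -0.31 ± 0.40 (SE), adjusted p = 0.539). Mrps16, the counterpart of bacterial S16, was at 26.4, 20.7, 28.7 and 55.04 CPM in the controls and 22.3, 25.3, 51.5 and 45.4 CPM after cisplatin (log2 fold change 0.14 ± 0.36 (SE), adjusted p = 0.771). In both genes control 5 exceeded all 4 cisplatin libraries while control 1 to 3 lay among or below them. Mrps24, the counterpart of bacterial S3, was at 27.5, 23.9, 35.2 and 78.3 CPM in the controls and 36.5, 33.1, 87.2 and 82.2 CPM after cisplatin (log2 fold change 0.53 ± 0.44 (SE), adjusted p = 0.345), with control 5 just under cisplatin 4 and 6, and shares 226 exon bases on the same strand with Urgcp. Mrps26 had the smallest absolute change of the 42, -0.0013 on the log2 scale with an SE of 0.35, at 40.7, 38.5, 47.9 and 87.9 CPM in the controls and 38.4, 32.01, 79.9 and 64.9 CPM after cisplatin. Its spread between libraries was wide, so even a change larger than the SE might not have been detected. Mrps22, Mrps28 and Mrps34 were not analysed.

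Mrps36 had the lowest log2 fold change of all (ENSMUSG00000061474, chr13:100735955-100744659). The protein was first assigned to the small subunit and is now known as a subunit of the oxoglutarate dehydrogenase complex of the citric acid cycle. It was at 54.02, 46.3, 59.2 and 76.6 CPM in the controls and 16.5, 18.2, 24.5 and 26.9 CPM after cisplatin. All 4 cisplatin libraries were under the lowest control, and the level was 2.75-fold lower (log2 fold change -1.46 ± 0.22 (SE), adjusted p = 0.000519). The fall was alike in both library sets (-1.58 in the first, -1.56 in the second), and it remained past the threshold by total counts (log2 fold change -0.90, adjusted p = 0.00259). No other annotated gene overlaps Mrps36, Mrps2, Mrpl1, Mrpl42, Mrps31 or Mrpl52.

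**Figure D2:**
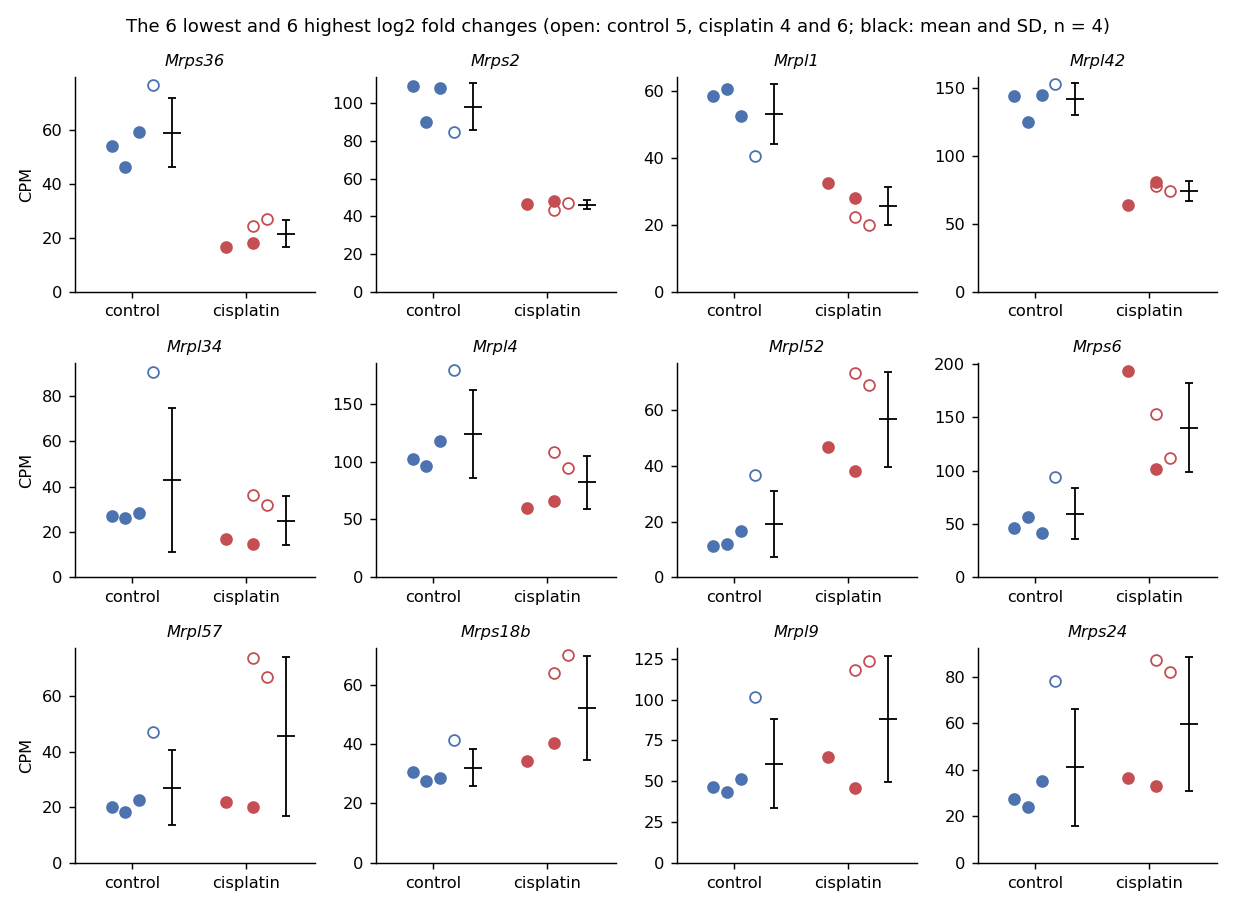
CPM (vertical axes, from 0) of the 6 genes with the lowest and the 6 with the highest log2 fold change in each library, control in blue and cisplatin in red, with open circles for control 5 and cisplatin 4 and 6 and the mean ± SD (n = 4) in black. Mrps36, Mrps2, Mrpl1 and Mrpl42 show no overlap between the groups, nor do Mrpl52 and Mrps6, whereas for Mrpl34 control 5 alone stands above the other 7 libraries.

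Differences between the library sets were larger than those between treatments for the median gene. Control 5 exceeded the mean of control 1 to 3 by a median of 0.662 on the log2(CPM + 0.5) scale, beside 0.031 over all genes tested, and was the highest control for 39 of the 42 genes (39.9% of all genes). The ratio was at least 1.5 for 25 genes and at least 2 for 11, and the log2 difference ran from -0.488 in Mrpl1 to 1.72 in Mrpl34. A difference in the same direction was present after treatment. Among the cisplatin libraries the set split is also the split in Y-linked counts, which cisplatin 1 and 3 nearly lack. These splits cannot be told apart there. Cisplatin 4 and 6 exceeded cisplatin 1 and 3 by a median of 0.685, beside -0.019 over all genes, and both lay above both for 38 genes (36.7% of all genes). Mrpl1 was the single gene with both below. Relative to the control mean, the median gene was at -0.205, -0.268, -0.128 and 0.469 on the log2 scale in the controls and at -0.448, -0.506, 0.326 and 0.213 after cisplatin. The spread between controls was larger with control 5 than without it, with a median coefficient of variation of 26.6% over the 4 controls and 7.3% over control 1 to 3. These figures describe the same libraries from which the sets were read, so no test is given.

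Genes with shorter exon length, the bases of all exons of a gene merged, differed more between the sets. In the controls, Spearman's rho between exon length and the set difference was -0.49 across the 42 genes (-0.30 across all genes tested), and after cisplatin it was -0.36 (-0.40). The 12 genes with under 1.5 kb of exon had a median difference of 1.034 in the controls and 0.877 after cisplatin, and the 10 genes with at least 4 kb had 0.344 and 0.512. The 2 set differences were related to each other across the 42 genes with a rho of 0.63 (0.50 across all genes). Genes share their libraries and are not independent replicates. The log2 fold change of cisplatin against control had a rho of 0.01 with exon length across the 42 genes (-0.15 across all genes tested).

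**Figure D3:**
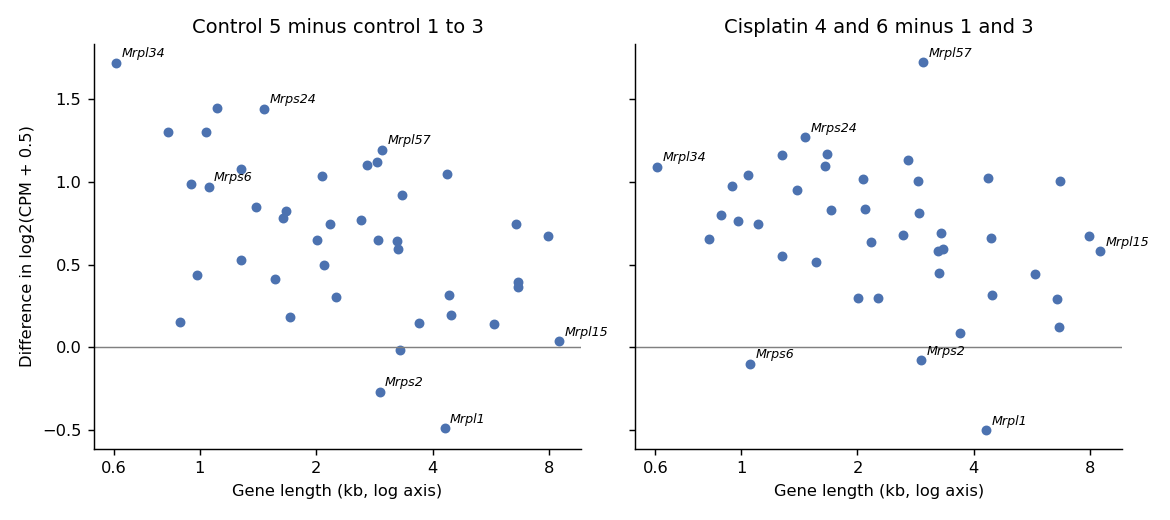
Difference in log2(CPM + 0.5) between library sets against exon length (kb, log axis, labelled as gene length) for the 42 genes, as control 5 minus the mean of control 1 to 3 (left) and as the mean of cisplatin 4 and 6 minus that of cisplatin 1 and 3 (right). Most points lie above 0 in both panels, and the 10 genes with at least 4 kb of exon have a lower median (0.344 and 0.512) than the 12 genes with under 1.5 kb (1.034 and 0.877).

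Within each library set, more of the genes had lower levels after cisplatin than in the comparison of all libraries. The log2 fold change was above 0 for 19 of the 42 genes over all libraries, and the difference was above 0 for 10 in the first set and 12 in the second. The median difference between cisplatin and control was -0.275 in the first set (0.090 over all genes) and -0.258 in the second (0.009), and the sign was the same in both sets for 36 of the 42 genes. The second set holds a single control, which was the highest control for 39 of the 42 genes. Every comparison within the second set, and the agreement between the sets, therefore rests on that library as the baseline. Every cisplatin library was below every control of its own set, in both sets, for 19 genes (29.2% of all genes) and above for 3 (33.3%), which were Mrps6, Mrps18b and Mrpl52. The library sets were read from these same counts, so adjusted p-values of fits that use the sets are descriptive only. With the library set as a covariate in edgeR, 19 genes were lower and 3 higher, against 28.7% and 32.1% of all genes. All 6 lower and all 3 higher genes of the fit without the covariate were among them. The 13 genes added were Mrpl4, Mrpl14, Mrpl22, Mrpl24, Mrpl28, Mrpl34, Mrpl37, Mrpl41, Mrpl44, Mrps7, Mrps9, Mrps12 and Mrps33. The log2 fold change of Mrpl34 was then -1.01 (adjusted p = 0.000298), that of Mrpl4 -0.77 (adjusted p = 0.000196), that of Mrpl44 -0.70 (adjusted p = 0.00121) and that of Mrps12 -0.58 (adjusted p = 0.00581). The median over the 42 genes was -0.228, beside 0.080 over all genes. In the first set alone, control 1 to 3 against cisplatin 1 and 3, 20 were lower and 2 higher (27.6% and 28.1% of all genes), and 18 of the 20 were also lower with the covariate. With the replicate number as a block, which rests on control 1 and 3 and cisplatin 1 and 3, 19 were lower and 2 higher (24.8% and 28.8% of all genes). Of the 26 large subunit genes 12 were lower with the covariate, and of the 15 small subunit genes 6. Of the 26 genes with a bacterial homologue 12 were lower, and of the 14 without one 6. In these fits both cisplatin libraries of the first set lack Y-linked counts while their controls have them, and the part of that difference in the result was not tested.

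**Figure D4:**
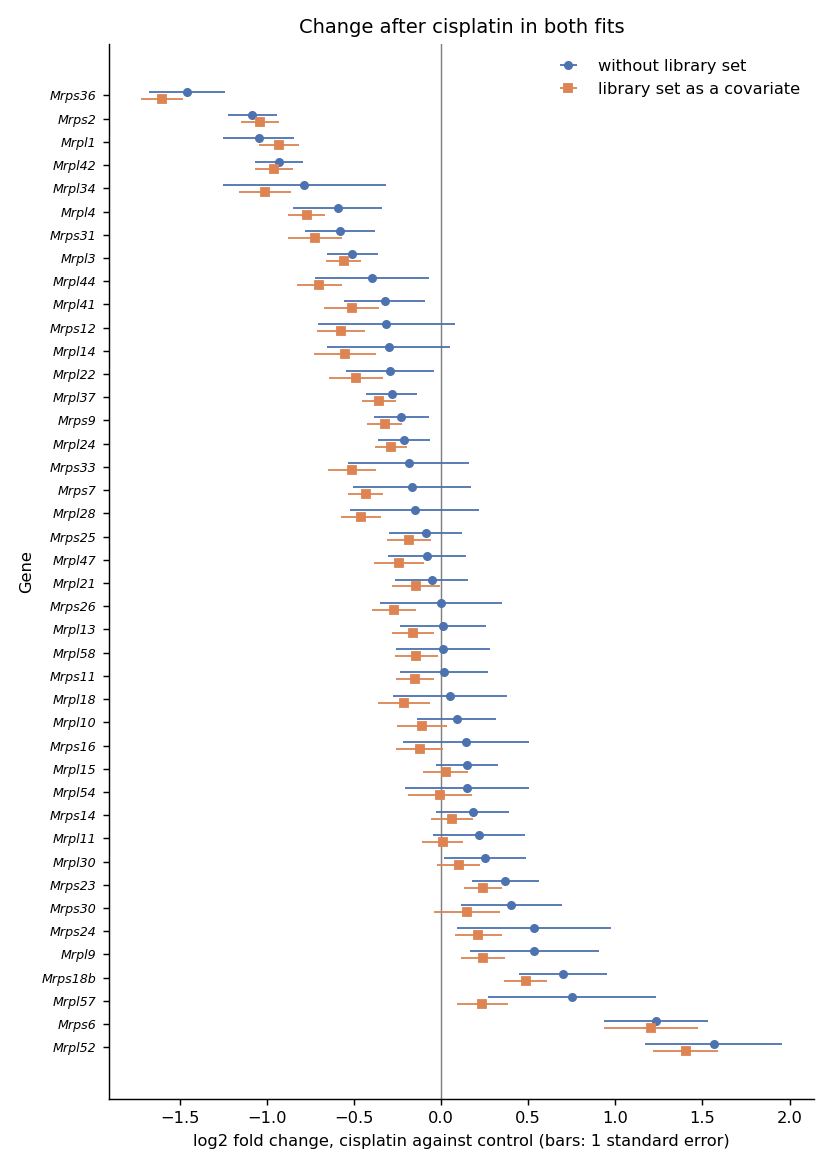
Log2 fold change of cisplatin against control (horizontal axis) for the 42 genes (vertical axis) in edgeR without the library set (blue circles) and with it as a covariate (orange squares), with bars of 1 standard error. The median moves from -0.067 to -0.228 with the covariate, and 19 genes in place of 6 were called lower.

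Genes that act with the mitochondrial ribosome were compared from lists of known members, many of which had no usable counts. Usable were 4 of 5 further ribosomal proteins, 12 of 29 assembly and rRNA modification factors, 7 of 17 translation factors, 7 of 22 genes for aminoacyl-tRNA synthesis, 11 of 27 genes for transcription and RNA processing and 11 of 13 mitochondrially encoded mRNAs, so the counts describe these genes and not the whole lists. The shares to read beside each list were 22.6% lower and 26.4% higher over all genes tested, and 11.9% and 47.8% by total counts. Of the 4 further ribosomal proteins without an Mrp name, Ptcd3 was lower (log2 fold change -0.83 ± 0.13 (SE), adjusted p = 0.000723) and Chchd1 was higher (log2 fold change 1.07 ± 0.38 (SE), adjusted p = 0.0417), while Dap3 (log2 fold change -0.04) and Gadd45gip1 (0.04) did not pass the test. Chchd1 was at 16.5, 18.4, 20.5 and 39.00 CPM in the controls and 31.97, 27.6, 70.5 and 67.96 CPM after cisplatin, with control 5 above both cisplatin libraries of the first set. Of 12 assembly and rRNA modification factors, 4 were lower (Fastkd2, Afg3l2, Gtpbp10 and Nsun4), 2 were higher (Mrm1 and Gtpbp6) and 6 were not called, with a median log2 fold change of 0.092 (0.653 by total counts, with 7 higher and 1 lower). Fastkd2, an RNA-binding protein needed for the large rRNA, was at 51.2, 52.01, 49.1 and 47.96 CPM in the controls and 24.2, 21.9, 15.6 and 19.2 CPM after cisplatin (log2 fold change -1.31 ± 0.17 (SE), adjusted p = 0.000196). Mrm1, which methylates the large rRNA, was at 12.9, 12.8, 13.3 and 24.5 CPM in the controls and 23.8, 19.2, 42.6 and 47.7 CPM after cisplatin (log2 fold change 1.06 ± 0.34 (SE), adjusted p = 0.0263).

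Most of the tested translation factors of the mitochondrion were lower. Of 7 tested, 6 were lower and none higher, beside 22.6% and 26.4% of all genes. The median log2 fold change was -1.087 (3 lower, median -0.502, by total counts). Tufm, the elongation factor that brings aminoacyl-tRNA to the ribosome, was at 255, 212, 273 and 384 CPM in the controls and 90.5, 87.99, 106 and 129 CPM after cisplatin (log2 fold change -1.44 ± 0.21 (SE), adjusted p = 0.000474). Gfm2, which acts with Mrrf in recycling the ribosome, was at 141, 128, 142 and 149.6 CPM in the controls and 49.5, 57.4, 45.02 and 47.6 CPM after cisplatin (log2 fold change -1.49 ± 0.14 (SE), adjusted p = 2.87e-05). Mtif3, an initiation factor, Mrrf, Tsfm and Oxa1l, which inserts new proteins into the inner membrane, were lower with log2 fold changes of -1.18, -1.09, -0.77 and -0.87. Slirp was not called, with an SE of 1.16. Of 7 genes for aminoacyl-tRNA synthesis, 4 were lower (Nars2, Aars2, Cars2 and Hars2) and 1 higher (Gars, which also serves the cytosol), with a median of -0.512 (0.053 by total counts, with 3 higher and none lower).

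Of 11 genes for transcription and RNA processing in mitochondria or for its nuclear control, 5 were lower (Grsf1, Fastkd1, Tefm, Esrra and Ppargc1a) and 1 higher (Gabpb1), beside 22.6% and 26.4% of all genes. The median log2 fold change of the 11 was -0.326 (0.243 by total counts, with 4 higher and 1 lower). Ppargc1a, the coactivator of mitochondrial biogenesis, was at 168, 185, 219 and 122 CPM in the controls and 115, 82.3, 32.7 and 18.6 CPM after cisplatin (log2 fold change -1.48 ± 0.49 (SE), adjusted p = 0.0311). Gabpb1, a subunit of the factor that binds the ETS motif, was at 23.6, 34.1, 26.5 and 20.2 CPM in the controls and 52.3, 42.1, 50.2 and 48.3 CPM after cisplatin (log2 fold change 0.88 ± 0.18 (SE), adjusted p = 0.00331). Both genes had groups that did not overlap. Nrf1, Gabpa, Yy1, Tfam and Polrmt were not analysed here.

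The mRNAs that this ribosome translates and the genes of partner proteins were set beside it. Of 11 mitochondrially encoded mRNAs, 8 were lower and none higher, with a median log2 fold change of -1.396 (6 lower, median -0.849, by total counts). The mitochondrial rRNAs did not pass the test (mt-Rnr1 0.50, mt-Rnr2 -0.08). Their summed level in control 5 was 1825 CPM, the lowest of the 8 libraries. Over all genes tested 22.6% were lower and 26.4% higher, and by total counts 11.9% and 47.8%. With the library set as a covariate the shares were 28.7% and 32.1%, and calls of that fit are descriptive only. Of 50 nuclear subunits of oxidative phosphorylation tested, 18 were lower and 1 higher, with a median of -0.542. With the library set as a covariate 40 of the 50 were lower and 1 higher. By total counts their median was 0.038, with 6 lower and 2 higher. Of 62 cytosolic ribosomal protein genes tested, 47 were higher and none lower, with a median of 1.296 (59 higher with the covariate, 61 higher by total counts). Both lists were also higher in control 5 than in control 1 to 3, by medians of 0.935 for the oxidative phosphorylation subunits and 1.147 for the cytosolic ribosomal proteins. Whether any of these lists differs from the mitochondrial ribosomal proteins was not tested.

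**Figure D5:**
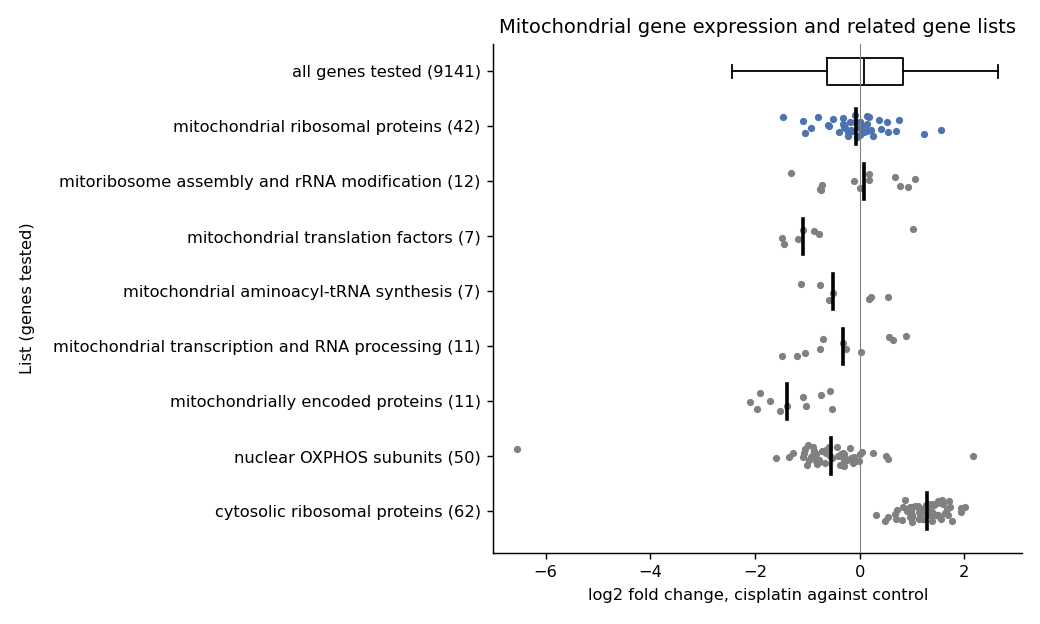
Log2 fold change of cisplatin against control (horizontal axis) for the genes of each list (vertical axis, number tested in brackets), with 1 point per gene and the median as a black bar, and for all 9141 genes as a box with whiskers at the 5th and 95th percentiles. The mitochondrial ribosomal proteins (median -0.067) lie around 0, the translation factors (median -1.087) mostly to the left and the cytosolic ribosomal proteins (median 1.296) to the right.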

How the data were processed

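Kidney RNA of 4 control and 4 cisplatin-treated mice was measured by bulk RNA-seq. The labels describe poly(A) RNA and a kit that marks the second strand, whereas the methods name a GEXSCOPE kit. The authors deposited the raw number of counts per gene, and the labels and methods name fastp, HISAT2 and GRCm38 for the steps before. The counting tool, annotation and strand setting are not given in the sources used here. Of 53715 genes, 17835 (33.2%) stood in lines with 10 values, which could not be assigned to libraries, so these lines and 2 unnamed extra columns were not used. Totals therefore cover part of each library, and 3 counts correspond to 0.136 to 0.266 CPM after TMM scaling, for counting error only.

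Groups and replicate numbers came from the labels. The kidneys are taken to be from different mice, so p-values measure the spread between these libraries. Counts were fitted in edgeR 4.0.16 (R 4.3.3) with its default filter, TMM scaling and the quasi-likelihood test over 9141 genes, and p was adjusted by Benjamini-Hochberg. A gene counts as higher or lower at an adjusted p under 0.05, and as up- or down-regulated if its log2 fold change also reaches 1 in size. CPM values are TMM-scaled. Differences between library sets used log2(CPM + 0.5). The procedure was tested on simulated data. Coordinates in the table matched GENCODE M21 for 41 of the 43 genes.

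The genes, lists, library sets and tests were chosen with earlier results of these data known. Values in every library are given for the 6 genes with the lowest and 6 with the highest log2 fold change at a mean of at least 1 CPM, genes with a well known role, the 3 with the highest level per kb and the one with the smallest change. Those of other lists were chosen after their values were seen. Alternatives were DESeq2 1.42.0, other scalings and filters, the replicate block, the library set and leaving out each library.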

Additional observations from a re-analysis of the deposited data

Results flagged for a closer look

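In 14 of the 84 groups of 4 libraries tested by Dixon's criterion, 1 library stood apart from the other 3, and in all 14 it was control 5 above control 1 to 3. Chance gives about 1 such group in 20 for a single gene. The genes share their libraries, so this rate is no yardstick for the 14 groups, and the share over all genes was not computed. Control 5 was at 184 CPM for Mrps7, 120.2 CPM for Mrpl28, 102 CPM for Mrpl9, 90.6 CPM for Mrpl34, 88.1 CPM for Mrpl30, 82.4 CPM for Mrpl44, 77.4 CPM for Mrpl58, 71.7 CPM for Mrpl18, 69.7 CPM for Mrps9, 67.2 CPM for Mrps14, 64.6 CPM for Mrpl11, 60.3 CPM for Mrps12, 47.2 CPM for Mrps11 and 47.1 CPM for Mrpl57. No cisplatin library stood apart in this sense, since cisplatin 4 and 6 were high together. The same control 5 had the lowest summed level of the mitochondrial rRNAs (1825 CPM). What sets control 5 apart was not tested.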

How the results depend on the processing

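Scaled by the library totals and not by TMM, 17 genes were higher, 3 lower, 6 up-regulated and 0 down-regulated, and the median log2 fold change was 0.497. The log2 fold change was above 0 for 35 genes in place of 19, among them Mrpl3 (0.057), Mrpl24 (0.347) and Mrpl21 (0.515), of which the last 2 passed the test, and Mrpl1 (-0.47, adjusted p = 0.109) and Mrps31 (-0.033, adjusted p = 0.886) no longer passed it. With the library set as a covariate 19 genes were lower, and 20 in the first set alone, where Mrpl10 was at -0.396. Replicate numbers 1 and 3 occur in both groups, but nothing says that they pair the mice. Deviations of same-numbered libraries correlated at 0.24 and 0.26, and both pairs lie in the first library set. With the replicate block 19 genes were lower and 2 higher, the median was -0.324 and Mrpl10 was at -0.395, from control 1 and 3 against cisplatin 1 and 3 alone. Leaving out each library gave 2 to 4 genes higher, 5 to 7 lower, 2 to 3 up-regulated and 2 to 3 down-regulated, and a median of -0.197 to 0.134. Over all genes these fits gave 1954 to 2485 higher and 1787 to 2155 lower, of 9186 to 9231 tested. The median of the 42 genes was above 0 without control 5 (0.134), cisplatin 1 (0.015) or cisplatin 3 (0.048). DESeq2, its size factors, upper-quartile factors, no filter, a minimum of 10 counts and removal of the most abundant genes gave 2 to 3 genes higher and 4 to 6 lower. Over all genes these alternatives gave 1787 to 2583 higher and 1665 to 2328 lower, of 7485 to 15862 tested. Mrps18b was lost with the size factors (adjusted p = 0.0548), Mrps31 with upper-quartile factors (0.0526) and with no filter (0.0524), and Mrpl3 with no filter (0.0542). Mrps24 was gained without control 5 (1.033, adjusted p = 0.0498), Mrps23 without cisplatin 3 and Mrpl4 without cisplatin 4. For the 42 genes the lowest count in any library was 126, so spread between libraries and not counting error limits these comparisons.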

Other observations

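Since Mrps36 belongs to the oxoglutarate dehydrogenase complex, the genes of its catalytic subunits were looked up after the values of Mrps36 had been seen. Ogdh was at 1512, 1365, 1559 and 1479.9 CPM in the controls and 693, 637, 393 and 356 CPM after cisplatin (log2 fold change -1.51 ± 0.24 (SE), adjusted p = 0.000763). Dlst was at 836, 777, 830.0 and 901 CPM in the controls and 367, 354, 454 and 430.2 CPM after cisplatin (log2 fold change -1.06 ± 0.16 (SE), adjusted p = 0.000449). Dld, which also serves other dehydrogenase complexes, was at 511, 523, 465 and 517 CPM in the controls and 213, 145, 190.4 and 185 CPM after cisplatin (log2 fold change -1.46 ± 0.16 (SE), adjusted p = 8.37e-05). All 3 genes were lower in each cisplatin library than in any control, against 22.5% of all genes. All 3 were called lower, against 22.6% of all genes. Their changes by total counts are not given here.

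Many of the ribosomal protein genes lie head to head with another gene. An oppositely oriented protein-coding gene starts within 1 kb of the start of 18 of the 43 (41.9%), against 1097 of 7526 tested protein-coding genes (14.6%). Of the 10 neighbours that were tested, 3 were higher after cisplatin (Ska3, Tmem63b and Mitd1) and 3 lower (Cyb5rl, Ndufb5 and Pnpla7), beside 26.4% and 22.6% of all genes. In edgeR without the library set the ribosomal protein gene of none of these 6 pairs was called. With the library set as a covariate Mrpl37, Mrpl14 and Mrpl41 were lower. Cyb5rl, 120 bases from Mrpl37, had a log2 fold change of -1.41 ± 0.24 (SE) with an adjusted p of 0.000936 in edgeR, where Mrpl37 had -0.28. Ska3, a spindle protein gene 49 bases from Mrpl57, was at 1.10 CPM in the controls and 5.19 CPM after cisplatin (log2 fold change 2.22 ± 0.35, adjusted p = 0.000719). The sign was the same within 7 of the 10 pairs. Exons on the opposite strand overlap those of 18 of the 43 genes, and whether the counts keep the strands apart is not given in the sources used here.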
